A study of Mus musculus with 4 samples.

Results

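The scavenger receptor and identity genes of sinusoidal endothelium were followed through mouse bone marrow cells. They are Stab1, Stab2, Mrc1, Lyve1, Gpm6a, Dnase1l3, Ubd and Il6st. They were picked by symbol, 8 of the 31053 features counted, and all 8 were found. Their levels were read in endothelial cells and macrophages of 4 single-cell RNA libraries, and the rule that picks them uses no measured value, although the list was drawn up with earlier results of these data known.

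Sinusoids are the wide, leaky venous capillaries through which blood cells leave the marrow, and their lining cells take up waste molecules from the blood by receptor-mediated endocytosis. Stabilin-1 (Stab1) and stabilin-2 (Stab2) bind modified proteins, apoptotic cells and, for stabilin-2, hyaluronan. The mannose receptor (Mrc1) takes up glycoproteins and collagen fragments and is shared with tissue macrophages, and Lyve1 is a hyaluronan receptor known from lymphatic vessels, liver sinusoids and some macrophages. Dnase1l3 encodes a secreted DNase, Gpm6a a membrane glycoprotein best known in neurons, Ubd the ubiquitin-like modifier FAT10, which is induced by inflammatory cytokines, and Il6st the gp130 subunit shared by the receptors of interleukin-6 family cytokines.

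The groups were irradiated Vegfc-deleted mice, irradiated control mice, non-irradiated Vegfc-deleted mice and non-irradiated control mice, with 1 library each. All mice were of the C57Bl/6JCrl strain, carried floxed Vegfc alleles and, per the labels, were given 5 tamoxifen doses at an age of 7 to 8 weeks. Vegfc-deleted mice (Rosa26-CreERT2; Vegfc flox/flox) also carried a Cre driven from the ubiquitous Rosa26 locus, so the deletion was not limited to 1 cell type, and Vegfc flox/flox controls had no Cre. Irradiated mice received 4 Gy of total body irradiation 2 weeks after tamoxifen and were sampled 7 days later. Irradiated libraries pooled 2 mice and non-irradiated libraries 3 mice. The labels elsewhere give 3 irradiated mice per genotype and name tamoxifen for only part of the samples. Viable tibial marrow cells were sorted as Lin-, CD45- and Ter119-, a gate that should remove most macrophages, so the macrophages described here are those that passed it.

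The libraries held 54462123 to 77284922 UMIs (counted transcript molecules) in 5134 to 7737 barcodes, of which 3837 to 5211 cells per library were kept. Vegfc was measured in LepR+ stroma-like cells, where most of its counts lay. It stood at 23.6 counts per 1000000 UMIs of the class (CPM) in irradiated Vegfc-deleted mice, 173.4 CPM in irradiated controls, 17.5 CPM in non-irradiated Vegfc-deleted mice and 167.3 CPM in non-irradiated controls. It was thus lower in both Vegfc-deleted libraries, although a 3′ tag need not lie in the deleted part. Cells were clustered without the 8 genes, and clusters were named from fixed markers that also left them out. With 1 library per group there was no test and no p-value. Intervals are exact 95% intervals that cover counting error only, not differences between mice. Most pairs of libraries shared 13 to 24 barcodes and the non-irradiated libraries shared 117, of which 21 were among the kept cells of both. Leaving out every shared barcode changed no call in endothelial cells and ended 1 call in the class of macrophages and monocytes.

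Promoter windows from RefSeq (build GRCm38.p6, 250 bases before to 50 after each gene start) were found for 6 of the 8 genes, as 7 windows because Gpm6a had more than 1. Lyve1 and Dnase1l3 had none. The windows of Stab1, Stab2 and Mrc1 are shown because these receptors were the members that stood lower in Vegfc-deleted endothelium in both irradiation states, and that of Ubd because it stood higher there and differed between macrophage libraries. Capitals mark AGGAAG or its complement CTTCCT, the core of binding sites of ETS factors, in the first 3 windows, TGCTGA, part of the recognition element of MAF factors, in Stab1 as well, and an NF-kB consensus match in Ubd.
Stab1, chr14:31168592-31168891, minus strand: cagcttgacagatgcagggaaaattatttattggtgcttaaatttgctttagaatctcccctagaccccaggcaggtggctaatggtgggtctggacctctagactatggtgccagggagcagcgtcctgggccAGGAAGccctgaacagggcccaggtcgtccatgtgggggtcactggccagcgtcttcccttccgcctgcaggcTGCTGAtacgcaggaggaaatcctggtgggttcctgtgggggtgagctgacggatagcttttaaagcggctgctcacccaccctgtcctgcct
Stab2, chr10:87007893-87008192, minus strand: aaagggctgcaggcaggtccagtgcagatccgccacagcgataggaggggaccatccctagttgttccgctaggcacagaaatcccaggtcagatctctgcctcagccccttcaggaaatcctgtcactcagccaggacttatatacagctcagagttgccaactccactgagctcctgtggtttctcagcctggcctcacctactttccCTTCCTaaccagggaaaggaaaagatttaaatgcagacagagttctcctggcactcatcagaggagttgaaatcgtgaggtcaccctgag
Mrc1, chr2:14229164-14229463, plus strand: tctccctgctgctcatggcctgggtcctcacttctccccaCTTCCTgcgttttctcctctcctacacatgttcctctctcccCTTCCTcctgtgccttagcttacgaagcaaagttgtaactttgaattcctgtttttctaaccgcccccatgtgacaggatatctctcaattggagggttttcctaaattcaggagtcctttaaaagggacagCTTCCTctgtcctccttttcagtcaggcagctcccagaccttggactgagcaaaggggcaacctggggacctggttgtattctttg
Ubd, chr17:37193642-37193941, plus strand: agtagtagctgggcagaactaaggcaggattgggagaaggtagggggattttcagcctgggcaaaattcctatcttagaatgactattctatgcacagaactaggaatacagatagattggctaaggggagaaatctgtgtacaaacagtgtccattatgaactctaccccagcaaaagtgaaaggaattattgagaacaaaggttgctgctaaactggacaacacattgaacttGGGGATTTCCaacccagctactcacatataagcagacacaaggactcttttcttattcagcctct
The ETS letters were searched on both strands and lay in 35.4% of 32851 promoter windows of the same length. Mrc1 held them 3 times, starting 210, 168 and 36 bases before the gene start, Stab1 once at 116 bases before it, Stab2 once at 40 bases before it, and 1 of the Gpm6a windows once at 98 bases before it. The NF-kB consensus was in 8.46% of the windows and, among the members, only in Ubd, 15 bases before its start. The MAF element was in 19.5% of the windows, and among the members in Stab1 only, 43 bases before its start. The GATA letters AGATAA were in 11.2% of the windows and in no member's window, the STAT letters TTCNNNGAA were in 8.30% and only in a Gpm6a window, and the interferon-stimulated response element was in 3.44% and only in a Gpm6a window. No motif searched for overlapped another within these windows. A match describes letters and is not a measured binding site.

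The part of the marrow in which each gene was found was set out first. Sinusoidal endothelium-like cells numbered 733 in irradiated Vegfc-deleted mice, 1517 in irradiated control mice, 367 in non-irradiated Vegfc-deleted mice and 314 in non-irradiated controls. They carried all 14 pan-endothelial markers in every library, summing to 9331 to 11501 CPM. Stab1, Stab2, Gpm6a, Dnase1l3, Ubd and Il6st each had their highest mean level over libraries in these cells, with means of 816, 1506, 680, 573, 1024 and 2794 CPM. For each of these 6 genes the next class was the other endothelial cells, and the library ranges of both classes did not overlap. The range of the other endothelial cells covers only the 2 irradiated libraries, which had at least 20 such cells. The exceptions to this order were Mrc1, which was higher in macrophage-like cells (mean 1824 CPM) than in sinusoidal cells (mean 1401 CPM) with overlapping library ranges, and Lyve1.

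**Figure D1:**
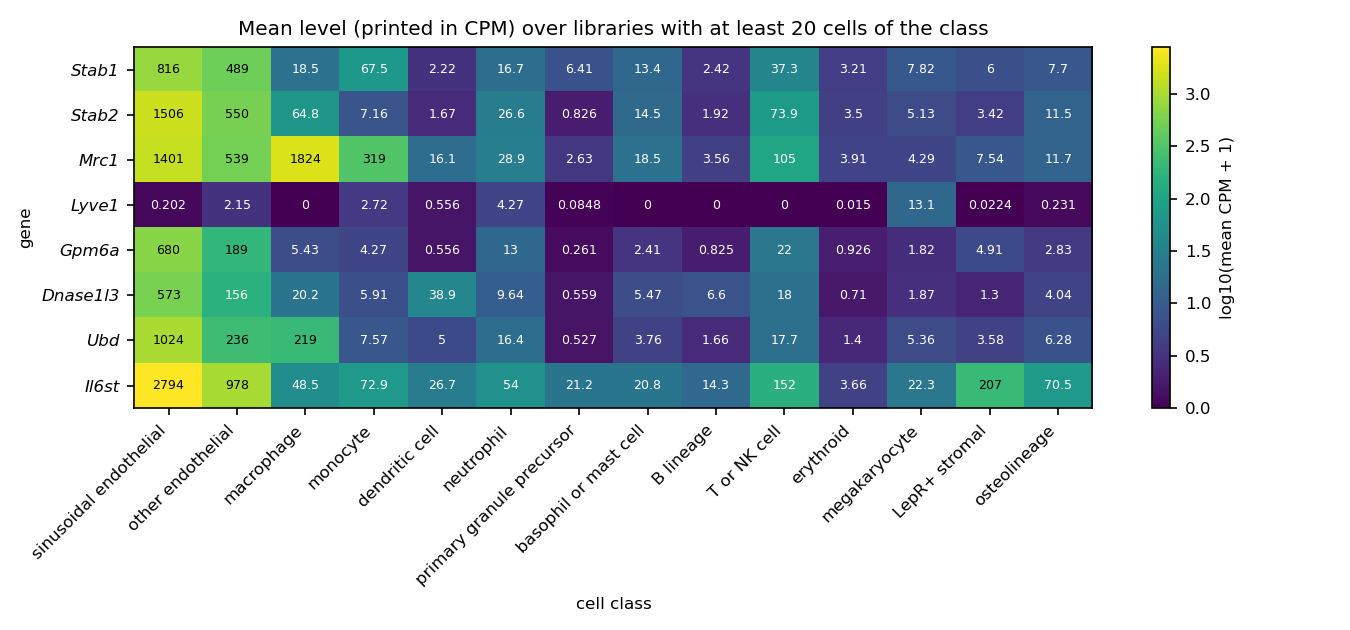
Mean level in CPM of each gene (rows) in each cell class (columns), averaged over libraries with at least 20 cells of the class, with colour on a log10(CPM + 1) scale. The sinusoidal column is the highest for 6 genes, Mrc1 is higher in the macrophage column, and Lyve1 is near 0 in both.

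Single sinusoidal cells held UMIs of several of the genes. When each cell was thinned to 1500 UMIs, the median cell of every library held UMIs of 5 of the 8 genes. At least 4 genes were detected in 91.9% of cells in irradiated Vegfc-deleted mice, 92.4% in irradiated control mice, 91.2% in non-irradiated Vegfc-deleted mice and 93.5% in non-irradiated controls. Both stabilins were detected in 63.6% of thinned cells in irradiated Vegfc-deleted mice, 68.5% in irradiated control mice, 45.6% in non-irradiated Vegfc-deleted mice and 55.2% in non-irradiated controls. The share with both stabilins was thus higher in the irradiated libraries and, within each irradiation state, lower in Vegfc-deleted mice. Stab2 was detected in 90.7%, 90.9%, 75.7% and 89.5% of cells with a Stab1 UMI, in the same order of libraries. Among cells without one it was 87.7%, 84.9%, 83.3% and 88.2%. The share with both therefore reflects how often each was detected and does not show that the 2 are linked.

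The other endothelial cells formed 1 cluster led by Col4a1, Gpihbp1 and Ly6c1, with 25 cells in irradiated Vegfc-deleted mice, 103 in irradiated control mice, 17 in non-irradiated Vegfc-deleted mice and 4 in non-irradiated controls. Stab1 stood there at 469.6 CPM in irradiated Vegfc-deleted mice, 508.2 CPM in irradiated controls, 406.5 CPM in non-irradiated Vegfc-deleted mice and 573.1 CPM in non-irradiated controls. Stab2 stood at 534.2, 565.6, 106.3 and 143.3 CPM in the same order of libraries, and Ubd at 137.9, 333.5, 50.03 and 81.9 CPM. All 7 genes other than Lyve1 were therefore present in these cells at a lower level than in the sinusoidal cells of the same library. The non-irradiated values rest on few cells, and for Stab2 on 17 counts in Vegfc-deleted and 7 counts in control mice. RNA of other cells differed between these libraries, with neutrophil markers at 37903, 114.8, 331.5 and 81.9 CPM and erythroid markers at 262.8, 6887, 3377 and 3398 CPM in the same order, and its part in the levels was not tested.

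The scavenger receptors Stab1, Stab2 and Mrc1 were compared in the whole endothelial class, which joins both kinds of cells (758 cells in irradiated Vegfc-deleted mice, 1620 in irradiated control mice, 384 in non-irradiated Vegfc-deleted mice and 318 in non-irradiated controls). All 3 stood higher in irradiated than in non-irradiated endothelium in both genotypes and lower in Vegfc-deleted than in control endothelium in both irradiation states. Most of these differences were small. In each comparison a gene counted as tested where its counts over the 2 libraries summed to at least 30, and a fold of 1.5 was used to describe size.

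Set against all genes, the members were not apart. In endothelial cells 2 of the 7 tested members were past 1.5-fold with irradiation in Vegfc-deleted mice (Stab2 higher, Dnase1l3 lower), beside 23.4% of all genes tested (15.1% higher and 8.36% lower). None of 7 was past it with irradiation in controls, beside 26.9% of all genes (18.3% higher and 8.67% lower), with deletion in irradiated mice, beside 10.7% (4.11% higher and 6.56% lower), or with deletion in non-irradiated mice, beside 10.2%. The median log2 ratio of the 7 members was 0.08, -0.05, -0.05 and -0.11 in these 4 comparisons, beside 0.14, 0.18, -0.01 and 0.02 for all genes. In sinusoidal cells 4 of the 7 had both irradiated libraries on 1 side of both non-irradiated ones, where 60.6% of all genes had (43.4% above and 17.1% below). Stab1 and Stab2 were above and Gpm6a and Dnase1l3 below. Both Vegfc-deleted libraries lay on 1 side of both controls for 3 of the 7 (Mrc1 below, Ubd and Il6st above), beside 24.8% of all genes.

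Stab1 (chr14:31139013-31168641, minus strand, GRCm38) stood at 803.4 CPM [781.4 to 825.8] in irradiated Vegfc-deleted mice, 959.1 CPM [944.7 to 973.6] in irradiated controls, 676.9 CPM [651.0 to 703.5] in non-irradiated Vegfc-deleted mice and 764.0 CPM [733.8 to 795.1] in non-irradiated controls. Its level was highest in irradiated controls and lowest in non-irradiated Vegfc-deleted mice, and the irradiated libraries did not overlap the non-irradiated ones. Irradiated over non-irradiated, its log2 ratio was 0.25 [0.18 to 0.32] in Vegfc-deleted mice and 0.33 [0.27 to 0.39] in controls. Vegfc-deleted over control, it was -0.26 [-0.30 to -0.21] with irradiation and -0.17 [-0.26 to -0.09] without. Stab1 overlaps Nt5dc2 on the opposite strand, and no source here says whether counting used strand, so reads of such pairs may be split.

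Stab2 (chr10:86841198-87008025, minus strand) stood at 1588 CPM [1557 to 1620] in irradiated Vegfc-deleted mice, 1639 CPM [1620 to 1658] in irradiated controls, 1058 CPM [1025 to 1091] in non-irradiated Vegfc-deleted mice and 1557 CPM [1513 to 1601] in non-irradiated controls. One library was apart: non-irradiated Vegfc-deleted endothelium was low, and the other 3 lay within a narrow band. Accordingly the log2 ratio of Vegfc-deleted over control was -0.56 [-0.62 to -0.50] without irradiation and -0.05 [-0.08 to -0.01] with it. That of irradiated over non-irradiated was 0.59 [0.53 to 0.64] in Vegfc-deleted mice and 0.07 [0.03 to 0.12] in controls. The fold in Vegfc-deleted mice lay just past 1.5, and it was a log2 ratio of 0.57 and no longer past it in sinusoidal cells alone. Antisense genes within Stab2 (Gm16268, Gm16280 and Gm16271) were counted separately.

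The share of sinusoidal cells with a Stab2 UMI, after thinning to 1500 UMIs, was 89.8% in irradiated Vegfc-deleted mice, 89.4% in irradiated control mice, 78.7% in non-irradiated Vegfc-deleted mice and 89.0% in non-irradiated controls. The same library was therefore low by cells as well as by CPM. Without thinning the shares were 97.8%, 97.2%, 98.4% and 98.7% in the same order, and erythroid cells, which should lack the gene, had a Stab2 UMI in 0.535% to 6.25% of cells per library unthinned. Median depths were 7392, 9851, 9404 and 9670 UMIs per sinusoidal cell and 8360, 9061.5, 9341 and 7086 UMIs per erythroid cell in the same order of libraries.

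Mrc1 (chr2:14229392-14332057, plus strand) stood at 1352 CPM [1324 to 1381] in irradiated Vegfc-deleted endothelium, 1547 CPM [1528 to 1565] in irradiated control, 1116 CPM [1083 to 1150] in non-irradiated Vegfc-deleted and 1427 CPM [1386 to 1470] in non-irradiated control endothelium. The order of libraries was that of genotype first, with both Vegfc-deleted libraries below both control libraries. Its log2 ratio of Vegfc-deleted over control was -0.19 [-0.23 to -0.16] with irradiation and -0.35 [-0.42 to -0.29] without. That of irradiated over non-irradiated was 0.28 [0.22 to 0.33] in Vegfc-deleted mice and 0.12 [0.07 to 0.16] in controls.

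Lyve1 (chr7:110850607-110863239, minus strand) was near absent from the vessel lining. The endothelial class held 1 Lyve1 UMI in irradiated Vegfc-deleted mice, 8 in irradiated control mice, 0 in non-irradiated Vegfc-deleted mice and 1 in non-irradiated controls. In the irradiated controls 5 of the 8 UMIs came from a single cell. For the 0 counts in non-irradiated Vegfc-deleted mice, the limit of 3 counts was at 0.786 CPM. No ratio was formed because the counts were too few. The highest mean level of any class was in megakaryocyte-like cells, at 8.96 CPM in irradiated Vegfc-deleted mice, 19.3 CPM in irradiated controls, 18.9 CPM in non-irradiated Vegfc-deleted mice and 5.14 CPM in non-irradiated controls, from 3, 30, 19 and 5 UMIs.

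The identity genes Gpm6a, Dnase1l3, Ubd and Il6st had other patterns. Dnase1l3 and Gpm6a were lower in both irradiated than in both non-irradiated libraries, and Ubd and Il6st were higher in Vegfc-deleted than in control endothelium in both irradiation states. Dnase1l3 had the largest ratio of the 7 tested members in endothelial cells.

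Dnase1l3 (chr14:7964533-7994573, minus strand) stood at 365.9 CPM [351.2 to 381.2] in irradiated Vegfc-deleted mice, 471.5 CPM [461.4 to 481.7] in irradiated controls, 723.8 CPM [697.1 to 751.3] in non-irradiated Vegfc-deleted mice and 670.3 CPM [642.1 to 699.5] in non-irradiated controls. The irradiated libraries were low and the non-irradiated ones high, with no overlap. With irradiation its log2 ratio over non-irradiated was -0.98 [-1.06 to -0.90] in Vegfc-deleted mice and -0.51 [-0.58 to -0.44] in controls. With deletion its log2 ratio over control was -0.37 [-0.43 to -0.30] with irradiation and 0.11 [0.03 to 0.19] without. In cells chosen by detected markers rather than by cluster, the ratio of irradiation in controls was only -0.06.

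The share of thinned sinusoidal cells with a Dnase1l3 UMI was 36.2% in irradiated Vegfc-deleted mice, 48.9% in irradiated control mice, 62.2% in non-irradiated Vegfc-deleted mice and 56.5% in non-irradiated controls. Unthinned shares had the same grouping, at 76.9%, 87.1%, 95.4% and 95.9% in that order. In erythroid cells the share with a Dnase1l3 UMI was 0% to 0.380% per library thinned and 0.401% to 1.29% unthinned. The sinusoidal cells of each irradiation state lay in different clusters, 664 and 1367 irradiated cells in the one against 34 and 9 non-irradiated, and 4 and 18 irradiated cells in the other against 326 and 297 non-irradiated (Vegfc-deleted and control in each pair). Within the first cluster Dnase1l3 stood at 379.5, 490.1, 778.0 and 751.1 CPM in irradiated Vegfc-deleted, irradiated control, non-irradiated Vegfc-deleted and non-irradiated control mice, so the few non-irradiated cells there were high as well.

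Gpm6a (chr8:54954843-55060871, plus strand) stood at 614.3 CPM [595.1 to 633.9] in irradiated Vegfc-deleted endothelium, 576.4 CPM [565.2 to 587.7] in irradiated control, 699.7 CPM [673.4 to 726.8] in non-irradiated Vegfc-deleted and 754.5 CPM [724.5 to 785.4] in non-irradiated control endothelium. Both irradiated libraries were below both non-irradiated libraries. Its log2 ratio of irradiated over non-irradiated was -0.19 [-0.26 to -0.12] in Vegfc-deleted mice and -0.39 [-0.45 to -0.32] in controls. The ratio in Vegfc-deleted mice was 0.02 when cells were thinned to 1500 UMIs, and both ratios were above 0 (0.09 in Vegfc-deleted mice and 0.06 in controls) in cells chosen by detected markers.

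Ubd (chr17:37193892-37196095, plus strand) stood at 1001 CPM [976.1 to 1026] in irradiated Vegfc-deleted mice, 827.5 CPM [814.2 to 841.0] in irradiated controls, 1191 CPM [1157 to 1226] in non-irradiated Vegfc-deleted mice and 943.4 CPM [909.9 to 977.9] in non-irradiated controls. Both Vegfc-deleted libraries were above both control libraries, and their log2 ratios were 0.27 [0.23 to 0.32] with irradiation and 0.34 [0.27 to 0.40] without. With irradiation its log2 ratio over non-irradiated was -0.25 [-0.31 to -0.20] in Vegfc-deleted mice and -0.19 [-0.25 to -0.13] in controls. In cells chosen by detected markers 3 of these 4 ratios changed sign, to -0.03 for deletion with irradiation, and to 0.03 in Vegfc-deleted mice and 0.26 in controls for irradiation.

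Il6st (chr13:112464070-112510086, plus strand) varied least. It stood at 2931 CPM [2889 to 2973] in irradiated Vegfc-deleted endothelium, 2534 CPM [2511 to 2558] in irradiated control, 2763 CPM [2711 to 2816] in non-irradiated Vegfc-deleted and 2631 CPM [2575 to 2688] in non-irradiated control endothelium. With deletion its log2 ratio over control was 0.21 [0.19 to 0.23] with irradiation and 0.07 [0.03 to 0.11] without, and both were below 0 in cells chosen by detected markers (-0.12 and -0.07). In LepR+ stroma-like cells, the class with the next highest Il6st after endothelium, it stood at 179.1 CPM in irradiated Vegfc-deleted mice, 236.2 CPM in irradiated controls, 222.8 CPM in non-irradiated Vegfc-deleted mice and 188.0 CPM in non-irradiated controls.

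**Figure D2:**
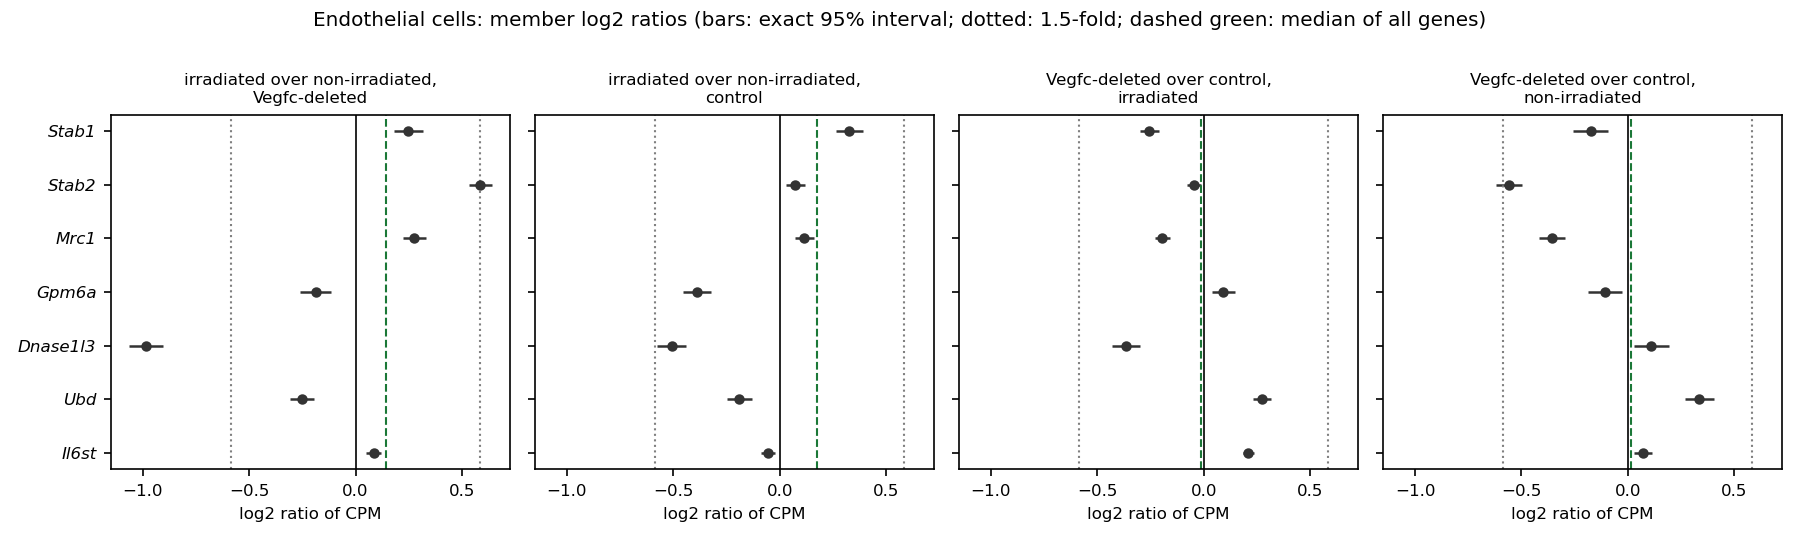
Log2 ratios of CPM in the endothelial class for each gene (rows) in 4 comparisons (panels), with exact 95% intervals that cover counting error only, dotted lines at 1.5-fold and a dashed line at the median of all genes. Stab2 at 0.59 and Dnase1l3 at -0.98 lie past 1.5-fold in Vegfc-deleted mice, and no tested gene does in the other 3 panels.

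Because the median gene was above 0 after irradiation, the receptors' irradiation ratios were smaller relative to it. Stab1 was then 0.11 higher in Vegfc-deleted mice and 0.15 higher in controls, and Stab2 was 0.44 higher in Vegfc-deleted mice but below the median gene in controls (-0.10). Mrc1 was 0.13 above the median gene in Vegfc-deleted mice and below it in controls (-0.06). The lower identity genes lay further from the median gene, Dnase1l3 at -1.13 in Vegfc-deleted mice and -0.69 in controls, and Gpm6a at -0.33 and -0.57. With TMM scaling, which moved the median gene to 0.03 and 0.09, the ratio of Stab2 in controls was -0.02, that of Il6st in Vegfc-deleted mice was -0.03, and the other tested directions in endothelial cells were kept.

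Other RNA in the sinusoidal cells differed with irradiation. Haemoglobin and granule RNA of other cells summed to 1136 CPM in irradiated Vegfc-deleted mice, 716.2 CPM in irradiated controls, 8352 CPM in non-irradiated Vegfc-deleted mice and 7476 CPM in non-irradiated controls. Immediate early genes, which tissue dissociation can raise, summed to 5400, 10799, 22448 and 22561 CPM in the same order. Immunoglobulin RNA was 3216 CPM in irradiated Vegfc-deleted mice and 24.0 CPM or less in the other libraries. Macrophage markers were low, at 178 to 323 CPM. The part of these differences in the members' ratios was not tested, except that leaving out the cluster led by immunoglobulin genes, or cells with macrophage UMIs, changed no endothelial call.

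**Figure D3:**
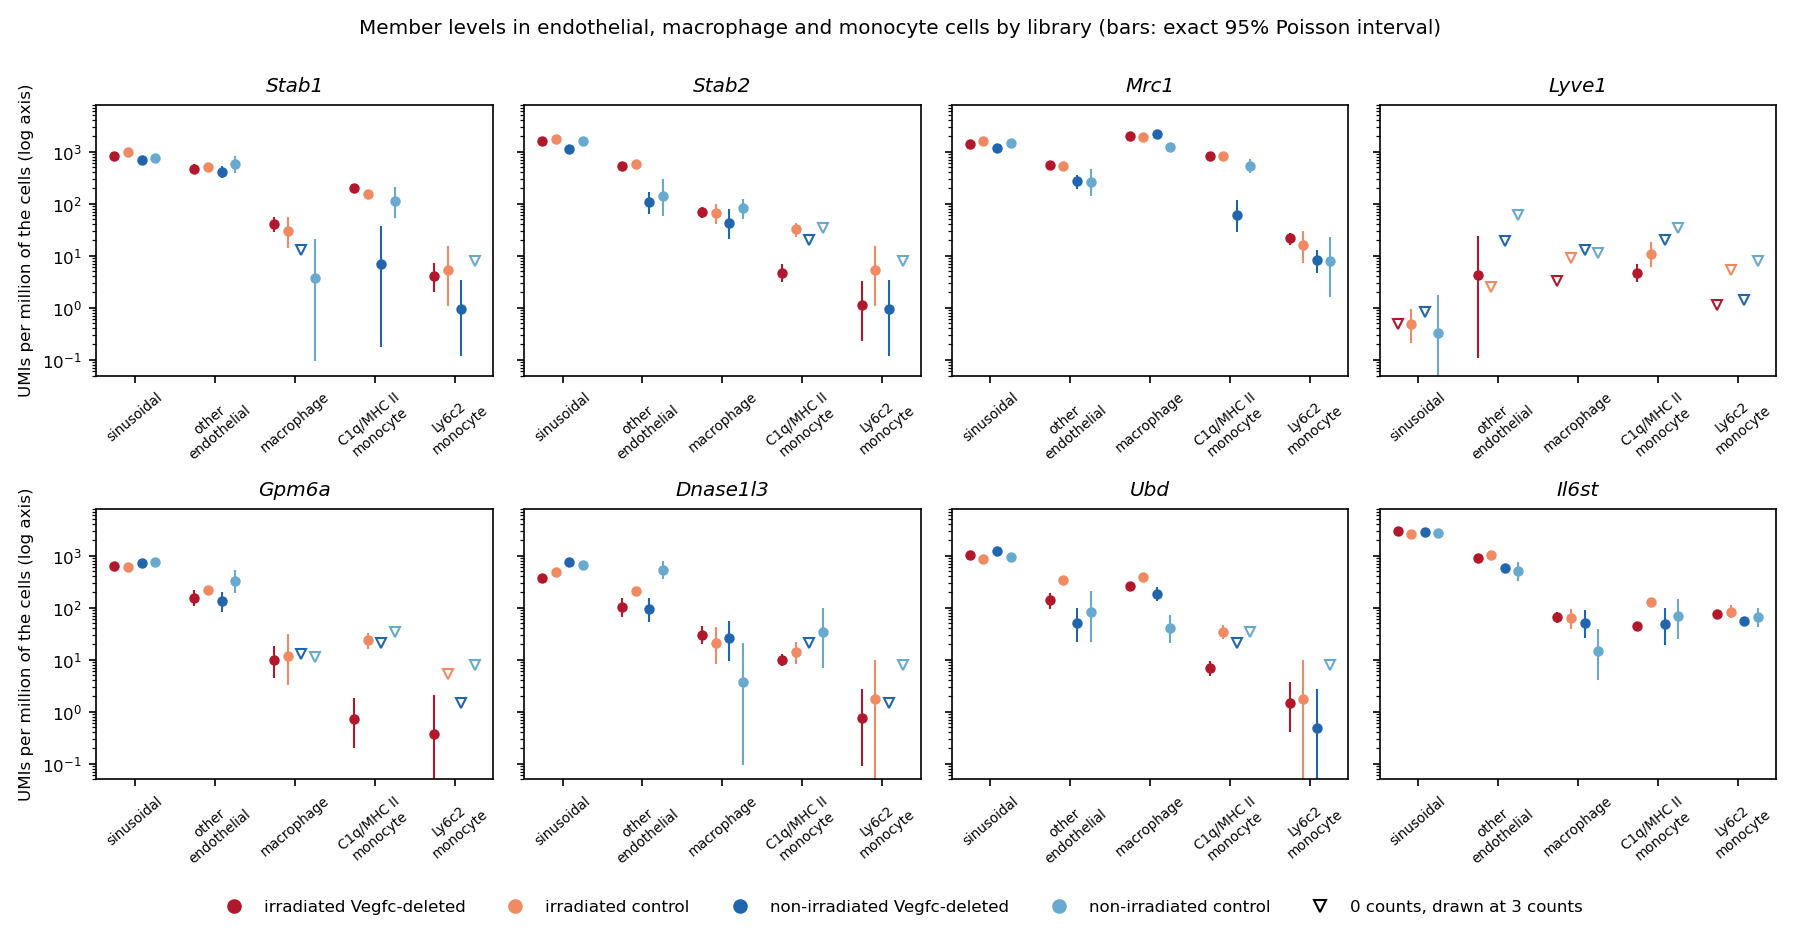
Level of each gene in CPM (log axis) in endothelial, macrophage and monocyte cells, with 1 point per library and exact 95% Poisson intervals. Triangles mark 0 counts, drawn at the level of 3 counts. Mrc1 in macrophages overlaps its sinusoidal range, Ubd spans 41.1 to 394.0 CPM among macrophage libraries, and the stabilins are far lower there.

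Macrophage-like cells, the second setting, formed 1 cluster led by C1qa, C1qb, C1qc and Cd5l, with Vcam1 and Hmox1 also among its leading genes. It held 239 cells in irradiated Vegfc-deleted mice, 85 in irradiated control mice, 70 in non-irradiated Vegfc-deleted mice and 39 in non-irradiated controls, at medians of only 1083 to 1424 UMIs per cell. These cells shared Mrc1 and, in part, Ubd with sinusoidal endothelium, and had little of the other members.

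Mrc1 in macrophages stood at 1991 CPM [1900 to 2084] in irradiated Vegfc-deleted mice, 1910 CPM [1765 to 2064] in irradiated controls, 2159 CPM [1975 to 2356] in non-irradiated Vegfc-deleted mice and 1237 CPM [1107 to 1378] in non-irradiated controls. The non-irradiated control library was low and the other 3 overlapped. The log2 ratio of irradiated over non-irradiated was -0.12 [-0.26 to 0.03] in Vegfc-deleted mice and 0.63 [0.43 to 0.82] in controls, and that of Vegfc-deleted over control was 0.06 [-0.07 to 0.19] with irradiation and 0.80 [0.60 to 1.01] without. Macrophage markers summed to 18810 CPM in irradiated Vegfc-deleted mice, 18206 CPM in irradiated controls, 18009 CPM in non-irradiated Vegfc-deleted mice and 12193 CPM in non-irradiated controls, and monocyte markers to 4727, 3292, 2878 and 7031 CPM in the same order. Haemoglobin and granule RNA summed to 31441, 2632, 85934 and 86783 CPM. Without the 5 deepest cells of each library (chosen after seeing the data) the ratio of deletion without irradiation was 0.77 and that of irradiation in controls 0.52, no longer past 1.5-fold. The low library was also the one with the lowest macrophage and the highest monocyte marker CPM. The part of these markers and of foreign RNA in the Mrc1 difference was not tested.

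Ubd in macrophages stood at 255.5 CPM [223.9 to 290.3] in irradiated Vegfc-deleted mice, 394.0 CPM [329.6 to 467.2] in irradiated controls, 183.9 CPM [133.1 to 247.7] in non-irradiated Vegfc-deleted mice and 41.1 CPM [20.5 to 73.6] in non-irradiated controls. The irradiated control library was the highest and the non-irradiated control library, with 11 counts, the lowest. The log2 ratio of irradiated over non-irradiated was 0.46 [0.00 to 0.98] in Vegfc-deleted mice and 3.20 [2.37 to 4.30] in controls. The log2 ratio of Vegfc-deleted over control was -0.63 [-0.94 to -0.31] with irradiation and 2.11 [1.18 to 3.27] without, so its sign differed between irradiation states, a difference that was not tested. These sums rest on few cells, since the 5 deepest cells held 21.2% of the macrophage UMIs in irradiated Vegfc-deleted mice, 58.3% in irradiated control mice, 40.8% in non-irradiated Vegfc-deleted mice and 76.9% in non-irradiated controls. Without those 5 cells of each library (chosen after seeing the data) the deletion ratio of Ubd with irradiation was -0.18 [-0.63 to 0.32] and no longer past 1.5-fold, and without irradiation too few counts were left for a ratio. By cells, a Ubd UMI was found in 36.4% of macrophages in irradiated Vegfc-deleted mice, 31.8% in irradiated control mice, 25.7% in non-irradiated Vegfc-deleted mice and 12.8% in non-irradiated controls. Thinned to 1500 UMIs the shares were 29.0%, 35.3%, 20% and 7.69%, of 107, 34, 25 and 13 cells, so the order of the irradiated libraries depended on depth. In erythroid cells the unthinned share was 0.937% to 2.94%. In the same sinusoidal libraries, by contrast, Ubd ratios of deletion were above 0 in both states.

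The macrophage levels were set beside the sinusoidal level of the same library, for the members and for the 5 endothelial markers Cdh5, Kdr, Pecam1, Flt4 and Plvap. In macrophages Ubd was 24.7% of its sinusoidal level in irradiated Vegfc-deleted mice, 45.6% in irradiated control mice, 14.8% in non-irradiated Vegfc-deleted mice and 4.30% in non-irradiated controls. Stab2 was at 4.21%, 3.82%, 3.89% and 5.21% in the same order, and the markers spanned 0.928% to 3.90%, 0.418% to 2.02%, 0% to 1.92% and 0% to 7.81%. Pecam1, which leukocytes also carry, was the highest marker in each library, with 9 counts in non-irradiated controls. Ubd was thus above Stab2 and all 5 markers in 3 libraries and below Stab2 and Pecam1 in non-irradiated controls. The part of endothelial RNA in the macrophage counts was not tested. Mrc1 was at 144%, 118%, 187% and 85.6% of its sinusoidal level. In neutrophil-like cells the 7 members other than Lyve1 were at 0.913% to 1.85% of their sinusoidal level in irradiated Vegfc-deleted mice, 4.78% to 5.98% in irradiated control mice, 0.0276% to 0.364% in non-irradiated Vegfc-deleted mice and 0.361% to 1.58% in non-irradiated controls. The 5 markers there were at 1.01% to 2.18%, 4.61% to 7.19%, 0.0976% to 0.450% and 0.0795% to 1.91% in the same order.

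The remaining members were lower in the macrophage cluster than Mrc1 and Ubd, except for Stab2 in non-irradiated controls. Stab2 stood at 68.5 CPM in irradiated Vegfc-deleted mice, 65.7 CPM in irradiated controls, 42.8 CPM in non-irradiated Vegfc-deleted mice and 82.2 CPM in non-irradiated controls, beside 0.320 to 10.6 CPM in erythroid cells. Stab1 had 37, 10, 0 and 1 counts in irradiated Vegfc-deleted, irradiated control, non-irradiated Vegfc-deleted and non-irradiated control mice. Lyve1 had 0 counts in every library, where the limit of 3 counts was at 3.26, 8.95, 12.8 and 11.2 CPM. Dnase1l3 stood at 30.4, 20.9, 25.7 and 3.74 CPM, Il6st at 65.2, 62.7, 51.3 and 15.0 CPM, and Gpm6a at 11.9 CPM or less. Stab1, Stab2 and Dnase1l3 were at 4.93%, 4.21% and 8.10% of their sinusoidal level in irradiated Vegfc-deleted mice and 3.01%, 3.82% and 4.26% in irradiated controls. These percentages were above those of all 5 endothelial markers in the same libraries, but on few counts. They rest on 37, 63 and 28 counts beside 20 for Pecam1 in irradiated Vegfc-deleted mice. In irradiated controls they rest on 10, 22 and 7 counts beside 4 for Pecam1. Whether the order exceeds counting error was not tested. In irradiated Vegfc-deleted mice 2 of 6 tested members were past 1.5-fold over non-irradiated Vegfc-deleted mice (Stab1 and Stab2, both higher), beside 31.2% of all genes. With irradiation in controls it was 2 of 3 (Mrc1 and Ubd, both higher), beside 39.7%, with deletion in irradiated mice 1 of 6 (Ubd, lower), beside 23.3%, and with deletion in non-irradiated mice 3 of 3 (Mrc1 and Ubd higher, Stab2 lower), beside 29.2%. The intervals of Stab2 included 0 in both comparisons where it was past 1.5-fold. Without the 5 deepest cells of each library (chosen after seeing the data) Stab2 stood at 55.2 CPM in irradiated Vegfc-deleted mice. It was then 50.5 CPM in non-irradiated Vegfc-deleted mice and 80.9 CPM in non-irradiated controls, from 40, 7 and 5 counts. Stab1 had 28 counts left in irradiated and 0 in non-irradiated Vegfc-deleted mice, too few for a ratio.

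**Figure D4:**
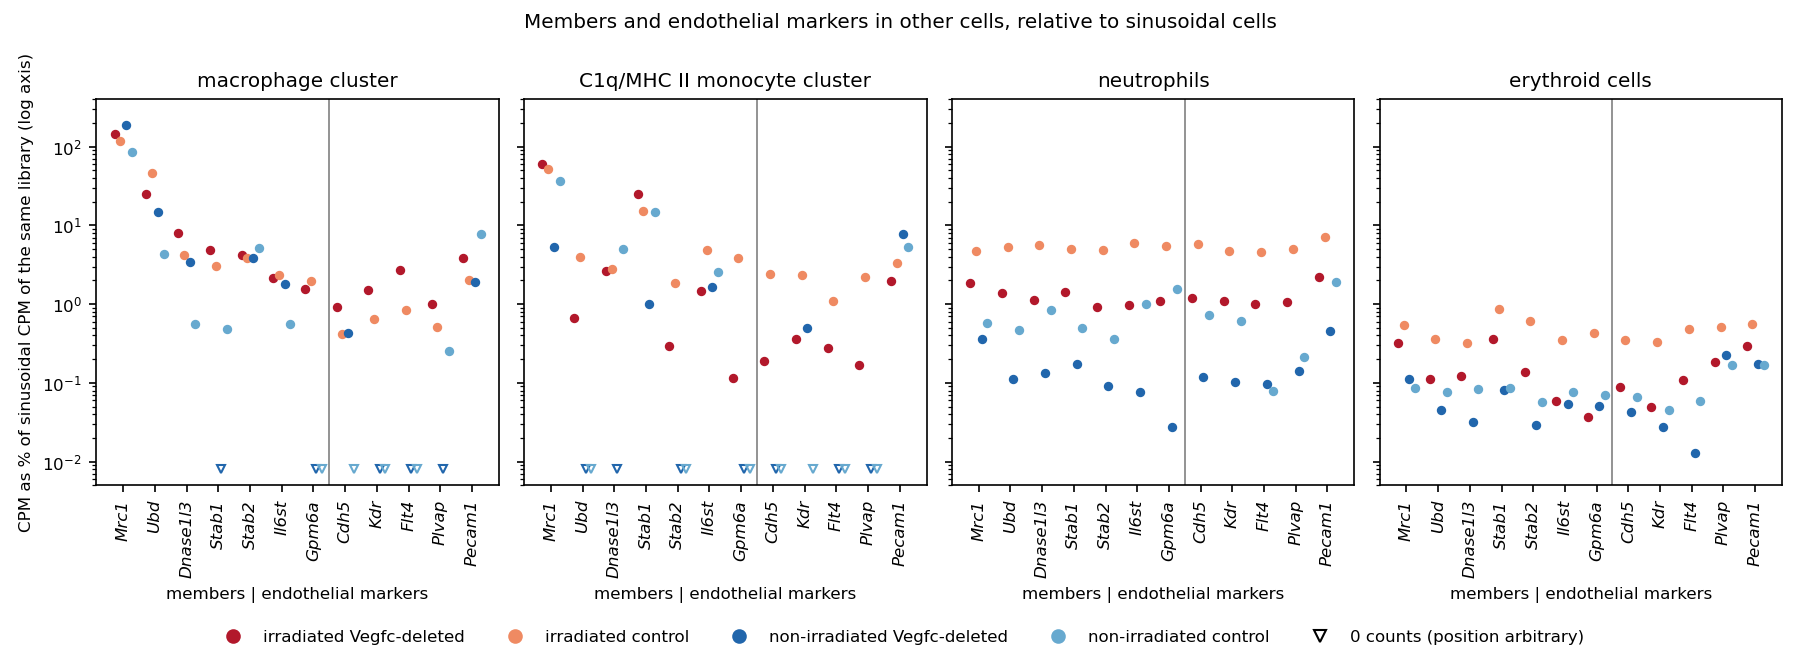
Level of each gene in other cells as a percent of its sinusoidal CPM in the same library (log axis), members on the left of the grey line and endothelial markers on the right. In macrophages Mrc1 (85.6% to 187%) stands above all 5 markers in every library and Ubd in 3 libraries, but in non-irradiated controls Ubd at 4.30% lies below Pecam1 at 7.81%.

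Stab1 with less Stab2 was found in a monocyte-like cluster led by Cd74, H2-Aa, Lyz2, C1qa, C1qb and Ccr2. This cluster held 321 cells in irradiated Vegfc-deleted mice, 53 in irradiated control mice, 22 in non-irradiated Vegfc-deleted mice and 8 in non-irradiated controls. Stab1 stood at 203.4 CPM in irradiated Vegfc-deleted mice, 153.2 CPM in irradiated controls, 6.82 CPM in non-irradiated Vegfc-deleted mice and 113.0 CPM in non-irradiated controls, from 1115, 210, 1 and 10 counts. Mrc1 stood at 833.3, 833.4, 61.4 and 531.0 CPM in the same order, and Stab2 at 4.74, 32.1, 0 and 0 CPM. A Stab2 UMI was found in 24 of the 321 cells in irradiated Vegfc-deleted mice and 7 of the 53 in irradiated controls. By CPM, Stab1 was higher in irradiated Vegfc-deleted mice [191.6 to 215.7 CPM] than in irradiated controls [133.2 to 175.4 CPM]. These intervals cover counting error only. By cells it was not higher, with a Stab1 UMI in 123 of the 321 cells and 23 of the 53, at median depths of 14750 and 22275 UMIs. The Mrc1 intervals of these 2 libraries overlapped, and the non-irradiated libraries had too few cells to compare.

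The Stab1 counts of that cluster came from few cells. In irradiated Vegfc-deleted mice 61 of the 321 cells had 5 or more Stab1 UMIs and held 1014 of the 1115 counts, and in irradiated controls 10 of the 53 cells held 191 of the 210. Mrc1 was detected in 97.6% of the cells with a Stab1 UMI and 80.8% of the others in irradiated Vegfc-deleted mice, and in 100% and 83.3% in irradiated controls. Cells with a Stab1 UMI were deeper, at medians of 17825 UMIs against 13457.5 UMIs for the others in irradiated Vegfc-deleted mice and 31440 against 16688.5 UMIs in irradiated controls. As a percent of the sinusoidal level, Stab1 was at 24.9% and 15.4% and the endothelial receptor Kdr at 0.362% and 2.36% in irradiated Vegfc-deleted and irradiated control mice.

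Lyve1 in the joined class of macrophages and monocytes also lay in few cells. In irradiated Vegfc-deleted mice 26 UMIs came from 10 of 697 cells, and all 6 cells with 2 or more of them also had Mrc1 and 5 of them Stab1. In irradiated controls all 15 UMIs came from 1 of 161 cells, which had Mrc1 and Stab1 as well. No Lyve1 UMI was found in the 197 cells of non-irradiated Vegfc-deleted mice or the 65 of non-irradiated controls. The second monocyte-like cluster, led by Lyz2, S100a4 and Ccr2, had Mrc1 at 21.5 CPM or less and Stab1 at 5.24 CPM or less.

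In macrophages and monocytes summed together, 5 of 6 tested members were past 1.5-fold with irradiation in Vegfc-deleted mice, all higher, beside 30.4% of all genes. With irradiation in controls it was 6 of 7, all higher, beside 29.2%. With deletion in irradiated mice 5 of 8 were past it (Stab2, Lyve1, Gpm6a, Ubd and Il6st, all lower), beside 16.1%. With deletion in non-irradiated mice it was 2 of 4 (Stab2 and Mrc1, both lower), beside 22.4%. The control counts of Lyve1 in irradiated mice were those of the 1 cell above. Endothelial Kdr stood at 31.4 CPM in irradiated control and 4.77 CPM in irradiated Vegfc-deleted monocyte-like cells, and the part of endothelial RNA was not tested. The 3 clusters made up different shares of that class in each library, and the macrophage cluster alone gave counts of 2, 2, 1 and 3. For Mrc1 with deletion in non-irradiated mice the log2 ratio was -1.26 in the summed class and 0.80 in the macrophage cluster.

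Genes that work with the members were counted from lists of other scavenger receptors, endocytosis and lysosome genes, hyaluronan genes, other sinusoidal genes, gp130 ligands and signalling genes, nucleases and FAT10 conjugation genes. In endothelial cells 10 of the 85 genes tested in both genotypes were past 1.5-fold higher after irradiation in both, beside 8.22% of all genes, and 10 were lower in both, beside 4.89%. Of 25 endocytosis and lysosome genes 4 were higher and 0 lower in Vegfc-deleted mice, and 5 were higher and 0 lower in controls, with Ctsd, Ctss and Hexa among those in both. These counts of higher genes were near the shares of all genes given above (15.1% and 18.3%). Of the other scavenger receptors 4 were higher and 4 lower in each genotype, of 14 tested in Vegfc-deleted mice and 18 in controls. Of 10 FAT10 conjugation genes 0 were past 1.5-fold in Vegfc-deleted mice and 1, Psmb9, was higher in controls.

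The genes that differed most in the same direction in both genotypes were named from these lists. The cathepsin Ctss stood at 8.39 CPM in irradiated Vegfc-deleted mice, 3.79 CPM in irradiated controls, 1.57 CPM in non-irradiated Vegfc-deleted mice and 0.633 CPM in non-irradiated controls. The hyaluronan-mediated motility receptor Hmmr, a mitotic gene as well, stood at 9.65, 7.53, 3.15 and 1.90 CPM in the same order, and Plbd1, a lysosomal phospholipase-like protein, at 10.4, 6.68, 1.31 and 0.633 CPM. These 3 were low in every library but higher in both irradiated ones, as was Clec1b, a platelet receptor for podoplanin, at 50.2, 49.1, 10.2 and 7.28 CPM. Macrophage complement and scavenger RNA (C1qa, C1qb, C1qc, Cd5l, Adgre1 and Vsig4) in sinusoidal cells had the same order of libraries as Ctss, summing to 39.8, 18.5, 2.46 and 1.93 CPM, and its part in these values was not tested.

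Lower in both irradiated libraries were the leukocyte adhesion molecule Sele, at 117.0 CPM in irradiated Vegfc-deleted mice, 83.6 CPM in irradiated controls, 396.0 CPM in non-irradiated Vegfc-deleted mice and 508.0 CPM in non-irradiated controls, and Cd68, a lysosomal scavenger protein of macrophages, at 4.59, 6.34, 19.9 and 19.3 CPM. Prox1, the master regulator of lymphatic endothelium, stood at 3.80, 4.70, 16.8 and 53.8 CPM in the same order, with the non-irradiated control the highest. Fcgr2b, an IgG receptor that clears immune complexes in liver sinusoids, was named after its values were seen. It stood at 777.4 CPM in irradiated Vegfc-deleted mice, 897.2 CPM in irradiated controls, 380.8 CPM in non-irradiated Vegfc-deleted mice and 442.8 CPM in non-irradiated controls, higher with irradiation as Stab1 was.

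Around Il6st, the feedback inhibitor Socs3 was lower after irradiation, at 68.5 CPM in irradiated Vegfc-deleted mice, 221.4 CPM in irradiated controls, 752.4 CPM in non-irradiated Vegfc-deleted mice and 890.6 CPM in non-irradiated controls. Its log2 ratio of irradiated over non-irradiated was -3.46 in Vegfc-deleted mice and -2.01 in controls. Stat3 and Osmr were named after their values were seen. Stat3, the main transcription factor of gp130 signalling, stood at 145.8, 149.2, 227.9 and 281.7 CPM, and the oncostatin M receptor Osmr at 126.1, 133.9, 259.9 and 271.5 CPM in the same order. Of the gp130 list 5 of 16 tested genes were lower with deletion in irradiated mice (Il6, Lif, Clcf1, Socs1 and Socs3) and 0 were higher, beside 6.56% and 4.11% of all genes. In non-irradiated mice 3 of 14 were lower with deletion, Il6 and Clcf1 among them, and 1 was higher, beside 4.66% and 5.55% of all genes. The immediate early genes given above had the same order of libraries as Socs3, and their part in it was not tested.

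Over 50 points of class and library with at least 20 cells, and among 8697 genes, the genes most like each member in log2(CPM + 1) were taken. These correlations share libraries and depth and carry no test. Gpm6a was most like Gpr182 (r of 0.97), Robo4 and Mmrn2, Stab2 most like Ushbp1 (0.93) and Sox18, and Stab1 most like Cyp4b1 (0.90), Sox18 and Ushbp1. Dnase1l3 was most like Ushbp1 (0.90) and Flt4, Ubd most like Enho (0.91) and Slc16a9, and Il6st most like Kctd17 (0.89). Mrc1 was most like Tmem106a (0.90), Abcc3, Chp2 and Hmox1. Lyve1 was most like F5 (0.81), which encodes coagulation factor V.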

How the data were processed

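Single-cell RNA was measured in 4 mouse bone marrow libraries (10x Chromium 3′ chemistry 3.1, per the labels). The deposited matrices hold raw UMI counts per gene and barcode. Cell Ranger 2.1.1 and build mm10 come from the submitters' processing notes, but the file header has software 3.1.0. Other options were not given in the sources used here. The 8 genes and all gene lists were chosen with earlier results of these data known.

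Barcodes with fewer than 500 genes or over 10% mitochondrial UMIs were left out, as were the highest Scrublet doublet scores at 0.8% per 1000 barcodes. Cells were clustered with scanpy 1.11.5 and leidenalg 0.10.2 (2000 variable genes, 40 components, 20 neighbours, resolution 1, seed 7) without the 8 genes and without batch correction. This gave 35 clusters, of which 2 stayed unnamed. Names came from 22 marker lists and needed a mean log2 score of at least 1.5, a margin of 0.75 and 3 detected markers. Such names are rebuilt, so each stands for cells that are like that type.

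UMIs of a class were summed within each library and given as counts per 1000000 UMIs (CPM). Intervals are exact Poisson for CPM, exact binomial for shares and exact conditional for ratios (scipy 1.17.1), at 95%. Log2 ratios used a prior of 0.5 counts and were read where both libraries together summed to at least 30 counts. For 0 counts, the level of 3 counts was given as the limit, which lies below the upper end of the exact interval. The ratios and their intervals were tested on summed counts simulated from a Poisson model, which holds no spread between cells or mice. With 1 library per group no test was made, and depth limits rare genes only to counting error. Genes outside the 8 were named where at least 1.5-fold in both genotypes (the 4 largest per direction), or as the 4 most correlated genes, unless said otherwise. Some genes that this rule names are not reported here. TMM factors came from edgeR 4.0.16. Alternatives changed filters, doublets, clustering, depth, scaling and the choice of cells.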

Additional observations from a re-analysis of the deposited data

Results flagged for a closer look

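Ratios with opposite signs between groups were found for 3 genes of endothelial cells, and in each case the difference between the groups was not tested. For Dnase1l3 the log2 ratio of Vegfc-deleted over control was -0.37 in irradiated mice and 0.11 in non-irradiated mice, where it was -0.03 in cells chosen by detected markers. For Gpm6a the same ratio was 0.09 in irradiated mice and -0.11 in non-irradiated mice, and that of irradiated mice was -0.22 in cells chosen by detected markers. For Il6st the log2 ratio of irradiated over non-irradiated was 0.08 in Vegfc-deleted mice and -0.05 in control mice. It was -0.03 in Vegfc-deleted mice with TMM factors, and in controls it was 0.07 without doublet removal and 0.39 in cells chosen by detected markers. Each of these 3 opposite pairs was therefore absent under at least 1 alternative. In the macrophage cluster Ubd also had ratios of opposite sign. Its log2 ratio of Vegfc-deleted over control was -0.63 in irradiated mice and 2.11 in non-irradiated mice, and this difference was not tested either. Without the 5 deepest cells of each library (chosen after seeing the data) the ratio in irradiated mice was -0.18. Too few counts were then left for the ratio in non-irradiated mice, so the opposite signs could not be checked there. Each ratio rests on 1 library per group.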

How the results depend on the processing

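No paired analysis was possible because each group had 1 library. Counts of members past 1.5-fold kept within 1.5 times in 81 of 102 alternatives, and all single endothelial ratios past 1.5-fold kept their sign. In endothelial cells the count of 2 with irradiation in Vegfc-deleted mice was 1, without Stab2, when cells were not filtered, with TMM factors, or in sinusoidal clusters alone. With irradiation in controls the count of 0 was 1 with TMM factors (Dnase1l3 lower) and 2 in cells chosen by detected markers (Stab1 and Mrc1 higher). With deletion it was 1 in such cells in irradiated mice (Dnase1l3 lower) and 1 in non-irradiated mice (Stab2 lower). Across alternatives Dnase1l3 with irradiation lay between -1.12 and -0.71 in Vegfc-deleted mice and between -0.60 and -0.06 in controls, and Stab2 with deletion in non-irradiated mice between -0.69 and -0.49. Signs of small endothelial ratios changed 10 times in cells chosen by markers, 2 times with TMM factors, and 1 time each without doublet removal and with thinning.

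In the joined macrophage and monocyte class the values depended on the cells taken in. The number of members tested changed as well, so each count is given with it. With irradiation in Vegfc-deleted mice the count of 5 was 3 of 6 without the filter and 2 of 6 in the macrophage cluster, where Mrc1 was -0.12. Stab2 was -0.32 [-2.12 to 2.33] after thinning, and Dnase1l3 was -0.56 and Ubd -0.28 in cells chosen by markers. With irradiation in controls the count of 6 was 3 of 5 under the stricter filter, 1 of 1 after thinning and 2 of 3 in the macrophage cluster. Without cells holding endothelial UMIs (chosen after seeing the data) Dnase1l3 was -0.84 [-2.74 to 1.45] and Il6st -0.27 [-0.88 to 0.41] in that comparison. With deletion in irradiated mice the count of 5 was 2 of 8 without doublet removal and 2 of 4 after thinning. It was 3 of 6 without cells rich in haemoglobin or granule RNA and 1 of 6 in the macrophage cluster. There Stab2 was 0.24 without doublet removal, 0.45 [-1.85 to 6.40] after thinning and 0.040 in the macrophage cluster. Il6st was 0.036 in that cluster and 0.11 without cells holding endothelial UMIs. Lyve1 was 0.40 [-0.16 to 1.04] in cells chosen by markers. Under the stricter filter it was 0.90 (lower end -2.87), and without cells rich in haemoglobin or granule RNA 3.33 (lower end 0.07). Neither of these 2 intervals had an upper end, since the controls then held no Lyve1 count. The 2 values rest on the prior of 0.5 counts and were not counted as past 1.5-fold. Ubd was 0.68 without cells rich in haemoglobin or granule RNA. With deletion in non-irradiated mice the count of 2 was 1 of 2 under the stricter filter, 1 of 1 after thinning and 1 of 7 in cells chosen by markers. It was 1 of 3 without cells holding endothelial UMIs and 4 of 6 with at least 10 counts. Mrc1 there was 0.67 after thinning and 0.80 in the macrophage cluster. The causes were not tested. Leaving out cells with 10 or more haemoglobin and granule UMIs left under 20 cells in the non-irradiated libraries and gave no value there.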
